A study of Mus musculus with 9 samples.

Results

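The 10 genes described here encode major urinary proteins: Mup1, Mup2, Mup3, Mup7, Mup9, Mup15, Mup17, Mup19, Mup20 and Mup21. They were taken by exact match of the gene name among 35275 entries of a table of mouse liver RNA-seq, and all 10 passed the low-count filter of the test. The series sets livers of C57BL/6 mice given PEGylated AdipoRon beside livers given the parent compound or vehicle. Each of the 3 groups held 3 libraries of total liver RNA: vehicle (PBS), AdipoRon, an orally active compound that activates adiponectin receptors, and AdipoRonPEG5, AdipoRon carrying a PEG chain. Injections were made 2 times a day for 5 days. The labels give 5 mg/kg in the same phrase for PBS as for the compounds, which leaves the compounds' doses uncertain. The title of the series names insulin deficiency and high-fat feeding, but no label says whether either applied to these mice. Sex and age are not in the labels, and no label says whether each library is a different mouse. If several share a mouse, p-values cover only technical spread.

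Major urinary proteins are small secreted proteins of the lipocalin family, barrel-shaped carriers of small hydrophobic molecules. In mice, hepatocytes make most of them; the proteins pass through blood and kidney into urine, where they bind pheromones, release them slowly and mark the identity of the animal. The genes lie side by side in a single cluster that arose by repeated duplication, and those of its central stretch are nearly identical. In liver they are known for their response to growth hormone, whose pulses act through the transcription factor STAT5, and to androgens, thyroid hormone and glucocorticoids.

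Vehicle 1 held 39473195 counts in total, and the other 8 libraries 13942322 to 18508950. The 10 genes took 1.49% to 2.95% of all counts of a library and 94.2% to 98.6% of the counts of all 51 entries named Mup. Xist was at most 0.308 CPM (read counts scaled to library size by TMM) and the Y-linked gene Ddx3y between 48.3 and 68.2 CPM in the 9 libraries, a male pattern. Vehicle 3 and AdipoRonPEG5 1 stood apart in acute phase genes: Saa1, a serum amyloid gene, was at 4959 and 1952 CPM there, against 45.1 to 497 CPM in the other 7 libraries. Vehicle 3 and AdipoRon 2 stood apart in the Mup genes themselves, as described with the values.

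How far the members can be told apart by reads was taken from GENCODE M21 transcripts. For each gene, every window of 100 bases was looked up in the transcripts of all other genes. In 3 members at least 50% of the windows were found in no other gene: Mup3 (97.8%), Mup21 (95.5%) and Mup20 (61.2%). Mup20 shared the rest (38.8%) with the pseudogene Mup-ps19. These 3 are called distinct here. In the 7 others, called central, the share was lower: 44.3% in Mup1, 40.6% in Mup17, 28.1% in Mup9, 24.5% in Mup2, 23.9% in Mup7, 2.7% in Mup15 and 0% in Mup19. No source used here states how reads matching several genes were counted, so that a value of a single central gene can hold reads of its neighbours. Such reads may also have been left out, which would lower the central genes beside the distinct ones. The sum of the central genes does not change when reads move between its members, but would fall if shared reads were left out.

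The start of the second coding exon shows the difference between the classes. The first 75 of its 134 coding bases are printed 5′ to 3′ from GENCODE M21 (GRCm38, minus strand), with capitals where a gene differs from Mup17, the central gene taken as the base. The same 75 bases as in Mup9 stand in Mup1, Mup2, Mup15 and Mup19.
Mup17 (chr4:61595252-61595326): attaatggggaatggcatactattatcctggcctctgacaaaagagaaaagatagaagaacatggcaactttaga
Mup9 (chr4:60421378-60421452): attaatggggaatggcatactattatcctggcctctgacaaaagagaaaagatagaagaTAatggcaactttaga
Mup7 (chr4:60069792-60069866): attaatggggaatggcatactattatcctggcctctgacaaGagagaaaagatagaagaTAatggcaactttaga
Mup20 (chr4:62053539-62053613): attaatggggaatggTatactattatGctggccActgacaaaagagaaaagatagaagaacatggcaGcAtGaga
Mup3 (chr4:62086859-62086933): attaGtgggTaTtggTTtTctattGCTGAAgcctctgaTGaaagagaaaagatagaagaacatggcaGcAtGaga
Mup21 (chr4:62150254-62150328): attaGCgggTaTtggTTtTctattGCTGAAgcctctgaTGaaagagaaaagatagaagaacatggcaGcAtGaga
Mup9 differs from Mup17 at 2 of these bases, Mup7 at 3, Mup20 at 6, Mup3 at 17 and Mup21 at 18. Over the whole coding sequence, the 21 pairs among the central members were 96.2% to 99.6% identical, with a median of 98.7%. The 21 pairs of a central with a distinct member were 83.6% to 91.5% identical, with a median of 85.1%. Mup20 was nearest to the central genes (90.4% to 91.5%), and Mup3 and Mup21 were nearest to each other (96.3%).

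**Figure D1:**
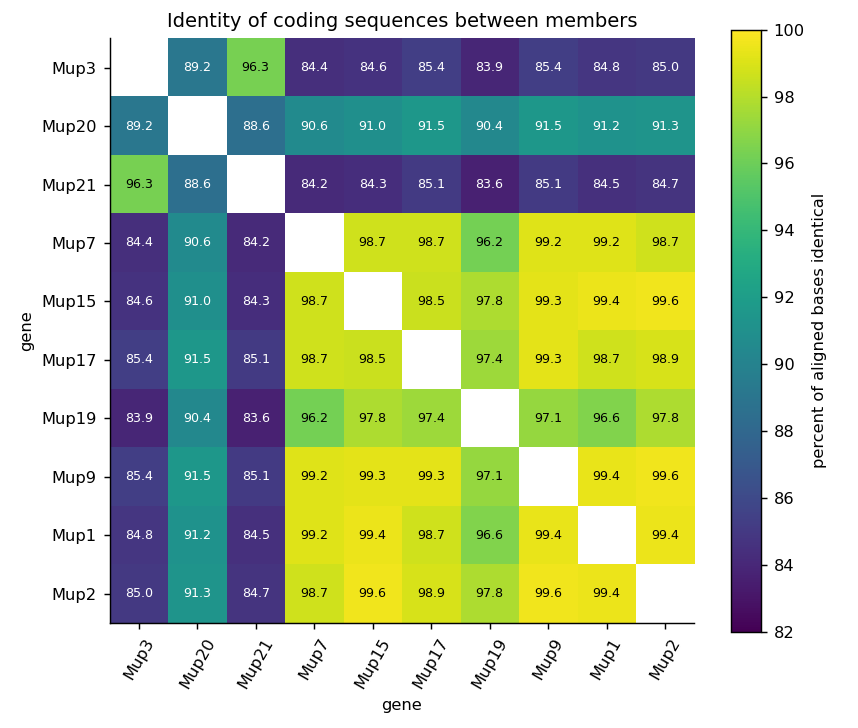
Identity of the coding sequences of each pair of the 10 Mup genes, in percent of aligned bases, with genes on both axes. The 7 central genes form a block at 96.2% to 99.6%, and Mup3 and Mup21 pair at 96.3%.

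The promoters of the genes show a like division. RefSeq (GRCm38.p6) promoters were matched for 8 members, all but Mup1 and Mup20. In 7 of these 8, all but Mup7, the letters TATATAAG stand shortly before the annotated start, and an A-rich stretch of varying length stands before them. Relative to that start the letters begin at base -31 to -25 in the 5 central genes, at -11 in Mup3 and at -8 in Mup21. The stretch from a run of bases shared by these genes to TATATAAG (in capitals) is printed 5′ to 3′ on the minus strand for the 3 central genes with the lowest levels under AdipoRonPEG5 relative to vehicle, and for Mup3 and Mup21.
Mup9 (chr4:60421976-60422091): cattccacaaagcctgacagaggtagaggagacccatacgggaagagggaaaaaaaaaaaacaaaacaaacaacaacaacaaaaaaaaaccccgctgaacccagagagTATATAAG
Mup17 (chr4:61595850-61595963): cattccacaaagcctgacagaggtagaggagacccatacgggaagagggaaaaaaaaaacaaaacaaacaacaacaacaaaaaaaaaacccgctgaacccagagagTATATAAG
Mup19 (chr4:61782248-61782359): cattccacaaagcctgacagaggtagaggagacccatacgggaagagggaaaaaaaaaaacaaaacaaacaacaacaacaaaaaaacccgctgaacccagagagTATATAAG
Mup3 (chr4:62087321-62087400): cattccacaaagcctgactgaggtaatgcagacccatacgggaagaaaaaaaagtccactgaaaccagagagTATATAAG
Mup21 (chr4:62150842-62150918): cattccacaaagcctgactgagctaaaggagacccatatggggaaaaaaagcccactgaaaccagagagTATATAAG
The stretch was 112 to 117 bases long in the central genes Mup2, Mup9, Mup15, Mup17 and Mup19, 80 bases in Mup3 and 77 in Mup21. Outside gaps the 5 central genes were 98.2% to 100% identical, and 88.3% to 90.0% identical to Mup3 and Mup21. On both strands, TATATAAG was in 1.01% of 32851 promoters; it was searched for after the sequences were seen. The letters AGAACA, a core of glucocorticoid receptor sites, were in the promoters of Mup3 and Mup21 and in 19.0% of all. TTCNNNGAA, the core bound by STAT5 and BCL6, was in none of the 8 (8.30% of all promoters). Nor were GTTAAT (7.10%) and TTGCNNAA, as in C/EBP sites (10.8%). TATAAA, a common spelling of the TATA box (13.6%), was absent too. TATATAAG, in 7 of the 8, is another TATA-like spelling, so the absence of TATAAA does not mean that a TATA box is lacking. Whether TATATAAG serves as a TATA box, also so near the annotated start in Mup3 and Mup21, was not tested. A match or its absence in these windows is a description of letters only.

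Levels were set beside each other between genes by FPKM (counts scaled by gene length and library total), which divides by gene length. FPKM does not correct for reads shared with or lost to other genes. The order and shares of central against distinct genes are therefore those of counted reads, and may differ from those of the mRNA. In vehicle livers Mup3 was highest, at 13076 ± 1465 FPKM (SD, n = 3), rank 5 of all entries, and did not overlap with Mup20, the pheromonal protein also known as darcin, at 5162 ± 2776 FPKM (rank 14). Mup7 (2602 ± 1612 FPKM), Mup21 (695 ± 324), Mup17 (613 ± 459) and Mup15 (537 ± 437) came next, each overlapping with its neighbour in the order. Between Mup15 and the next gene the libraries did not overlap: Mup19 was at 25.8 ± 5.11 FPKM, Mup9 at 18.3 ± 15.4, Mup1 at 17.8 ± 9.84 and Mup2 at 11.2 ± 4.27, with overlap among these 4. In AdipoRon livers the order was the same but for Mup15 and Mup17, which changed places and overlapped.

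In AdipoRonPEG5 livers the order was another. Mup3 (7911 ± 540.2 FPKM) and Mup20 (7386 ± 1056 FPKM) overlapped at the top. Mup7 (931 ± 214) and Mup21 (661 ± 191) followed and overlapped too. Mup15 stood at 83.3 ± 70.1 FPKM and Mup17 at 46.7 ± 31.9 FPKM. Mup19, seventh in vehicle, was ninth here at 2.97 ± 2.26 FPKM, below Mup1 and Mup2. Mup9 was last at 0.572 ± 0.195 FPKM, rank 11690 of all entries against 2649 in vehicle.

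AdipoRonPEG5 livers held less mRNA of 6 of the 10 genes than vehicle livers: Mup9, Mup17, Mup19 and Mup15 by 7.02 to 34.2-fold between group means, Mup2 by 2.88-fold and Mup3 by 1.76-fold. The same 6 genes were lower in every AdipoRonPEG5 library than in every vehicle library. None of the 10 rose with edgeR, DESeq2 or limma-voom, or was higher at an unadjusted p under 0.05 in edgeR. Of 13151 tested genes, 7.63% passed the test as lower, 9.55% as higher and 17.2% in either direction, and 17% had all libraries lower. Less RNA per hepatocyte and fewer hepatocytes cannot be told apart in whole liver. Hepatocyte markers (8 genes, Alb among them) summed to 84248 to 95849.95 CPM in vehicle, 74130.1 to 81127 in AdipoRon and 80056 to 89325 in AdipoRonPEG5 livers. Alb alone, at 44230 to 61020 CPM, made up most of each sum, so the other markers weigh little in it.

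Mup9 was nearly gone under AdipoRonPEG5. It was at 9.38, 8.15 and 35.3 CPM in vehicle 1 to 3, 4.81, 36.8 and 8.13 in AdipoRon 1 to 3, and 0.555, 0.311 and 0.678 in AdipoRonPEG5 1 to 3, where these levels stand for 9, 6 and 11 counts. Vehicle 3 and AdipoRon 2 were the high libraries, and all AdipoRonPEG5 libraries lay far below the lowest of the others. The AdipoRonPEG5 libraries alone would not have carried Mup9 past the low-count filter. A fall was thus the only call open to it with AdipoRonPEG5. The log2 fold change was -5.08 ± 1.04 (SE; 95% interval -7.36 to -2.80; edgeR adjusted p = 0.00787), with -4.12 without vehicle 3 and not called in limma-voom (adjusted p = 0.0963).

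Mup17 and Mup15 showed a like spread of libraries. Mup17 was at 283, 384 and 1139 CPM in vehicle, 198, 1155 and 300.2 in AdipoRon and 29.6, 74.1 and 22.9 in AdipoRonPEG5 livers. It fell with AdipoRonPEG5 by 3.83 ± 0.77 on the log2 scale (edgeR adjusted p = 0.00755; -2.98 without vehicle 3, -4.52 without AdipoRonPEG5 2). Mup15 was at 202, 348 and 1032 CPM in vehicle, 282, 1481 and 309.7 in AdipoRon and 31.03, 145 and 48.8 in AdipoRonPEG5 livers. Within each of the 3 groups a single library held the high value: vehicle 3, AdipoRon 2 and AdipoRonPEG5 2. The fold change of Mup15 was -2.81 ± 0.82 (edgeR adjusted p = 0.0383), the least firm of the 6. Its call ended without vehicle 2, vehicle 3, AdipoRonPEG5 1 or AdipoRonPEG5 3 (adjusted p 0.0598 to 0.132), with a value of -1.87 without vehicle 3 and -3.72 without AdipoRonPEG5 2.

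Mup19 and Mup2 varied less among vehicle libraries. Mup19 was at 25.7, 19.4 and 29.98 CPM in vehicle, 15.2, 28.99 and 23.2 in AdipoRon and 5.06, 1.82 and 1.23 in AdipoRonPEG5 livers. Its fold change, -3.23 ± 0.40 (edgeR adjusted p = 0.000646; -4.02 without AdipoRonPEG5 1), had the lowest p of the 10, although no 100-base window of Mup19 is its own. Mup2 was at 15.1, 7.70 and 9.52 CPM in vehicle, 6.97, 9.998 and 9.23 in AdipoRon and 3.89, 3.997 and 3.33 in AdipoRonPEG5 livers, and fell by 1.55 ± 0.25 on the log2 scale (edgeR adjusted p = 0.00231). In both genes vehicle and AdipoRon libraries mixed, and the AdipoRonPEG5 libraries lay below them all.

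Mup7 and Mup1 did not pass, and their groups overlapped. Mup7, the most abundant central gene, was at 927, 3056 and 4545 CPM in vehicle, 2224, 5242 and 1648 in AdipoRon and 702, 1092 and 1049 in AdipoRonPEG5 livers. Vehicle 1 lay within the range of the AdipoRonPEG5 libraries, and the fold change was -1.58 ± 0.53 (95% interval -2.74 to -0.43; edgeR adjusted p = 0.0618). Mup1, which has been tied to glucose and lipid metabolism as a circulating protein, was at 7.69, 16.7 and 27.8 CPM in vehicle, 10.2, 20.9 and 12.2 in AdipoRon and 7.53, 8.10 and 5.98 in AdipoRonPEG5 livers (-1.23 ± 0.41, interval -2.14 to -0.33, edgeR adjusted p = 0.0631). Here too vehicle 1 was the low vehicle library. Without vehicle 1, or without AdipoRon 2, both genes passed as lower (adjusted p of Mup7 0.0119 and 0.035, of Mup1 0.00877 and 0.0491).

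**Figure D2:**
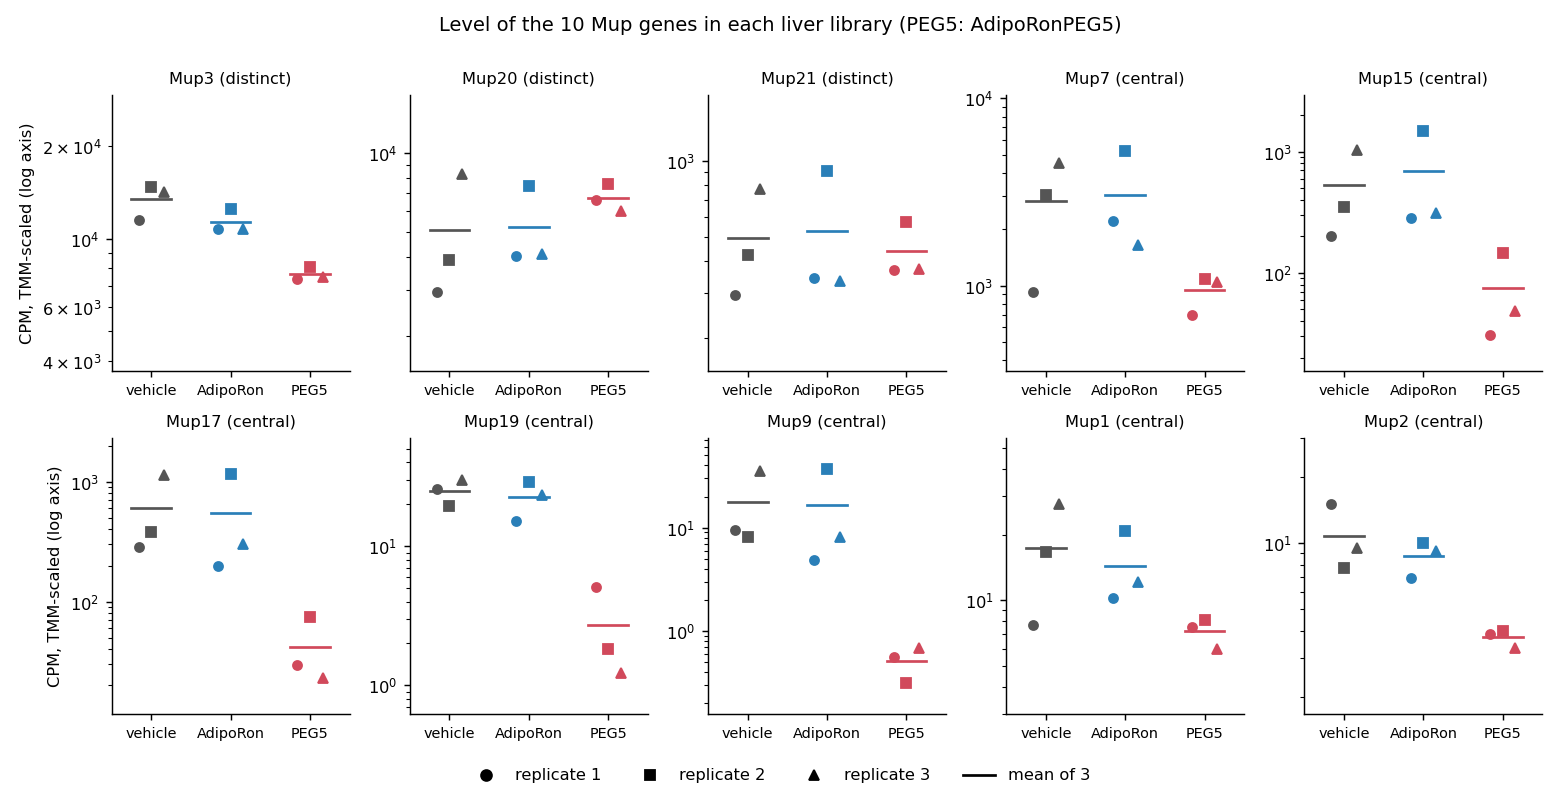
Level of each of the 10 Mup genes in CPM (log axis) by group, with 1 point per library and a line at the mean of 3. Mup9 lies at 4.81 to 36.8 CPM in vehicle and AdipoRon libraries and at 0.311 to 0.678 CPM in AdipoRonPEG5 libraries, while the groups overlap for Mup20 and Mup21.

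Of the 3 distinct genes Mup3 fell, while Mup20 and Mup21 did not pass. Mup3, the most abundant member, was at 11477, 14752 and 14156 CPM in vehicle, 10721, 12480.2 and 10786 in AdipoRon and 7408, 8067 and 7518 in AdipoRonPEG5 livers. Its groups did not overlap between AdipoRonPEG5 and vehicle, and it fell by 0.81 ± 0.12 on the log2 scale (95% interval -1.08 to -0.54; edgeR adjusted p = 0.00181). Mup20 was at 2949, 3896 and 8328 CPM in vehicle, 4053, 7497 and 4130.3 in AdipoRon and 6633, 7578 and 6006 in AdipoRonPEG5 livers. Vehicle 3 was the highest of all 9 libraries and the other vehicle libraries the 2 lowest, so that the groups overlapped (0.41 ± 0.35, interval -0.35 to 1.18, edgeR adjusted p = 0.455). Without vehicle 3, Mup20 passed as higher with AdipoRonPEG5 (log2 fold change 0.97, adjusted p = 0.0222). Mup21 was at 295, 424 and 771 CPM in vehicle, 342, 911 and 333 in AdipoRon and 369.9, 573 and 374 in AdipoRonPEG5 livers, with overlap of all groups (-0.18 ± 0.41, interval -1.09 to 0.74, edgeR adjusted p = 0.817).

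Over the 10 members the median log2 fold change of AdipoRonPEG5 against vehicle was -1.57, against -0.0013 over all tested genes. The 7 central members summed to 1469, 3839.8 and 6819 CPM in vehicle, 2741, 7975 and 2311 in AdipoRon and 779, 1326 and 1132 in AdipoRonPEG5 livers. Every AdipoRonPEG5 library lay below every other library, and the vehicle mean was 3.75 times the AdipoRonPEG5 mean (log2 ratio -1.91). Without vehicle 3 it was 2.46 times (-1.30). The 3 distinct members summed to 14722, 19071 and 23255 CPM in vehicle, 15116, 20887 and 15249 in AdipoRon and 14411, 16218 and 13898 in AdipoRonPEG5 livers, with overlap and a vehicle mean 1.28 times that of AdipoRonPEG5 (log2 ratio -0.36). The sum of all 10 was 23059 ± 6943 CPM in vehicle, 21427 ± 6441 in AdipoRon and 15921 ± 1407 in AdipoRonPEG5 livers (SD, n = 3). Its log2 ratio was -0.53 for AdipoRonPEG5 against vehicle, between those of the 2 classes. Without vehicle 3 that ratio was -0.30. No p is given for these sums.

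Relative to Mup3, Mup20 stood higher under AdipoRonPEG5. The ratio of their FPKM was 0.272, 0.280 and 0.624 in vehicle, 0.401, 0.637 and 0.406 in AdipoRon and 0.949, 0.996 and 0.847 in AdipoRonPEG5 livers. The AdipoRonPEG5 libraries were all above the others, with vehicle 3 and AdipoRon 2 next. Both genes are distinct in sequence, and the ratio does not depend on the scaling between libraries. In the summed FPKM of the 10 members, Mup3 went from 59.6 ± 12.3% in vehicle to 46.6 ± 2.13% in AdipoRonPEG5 livers, and Mup20 from 21.8 ± 5.95% to 43.3 ± 1.97%. Mup7 held 10.6 ± 4.64% and 5.46 ± 1.12%, and Mup17 2.498 ± 1.23% and 0.263 ± 0.148%. The shares of Mup3 overlapped between vehicle and AdipoRonPEG5 livers, those of Mup20 did not.

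**Figure D3:**
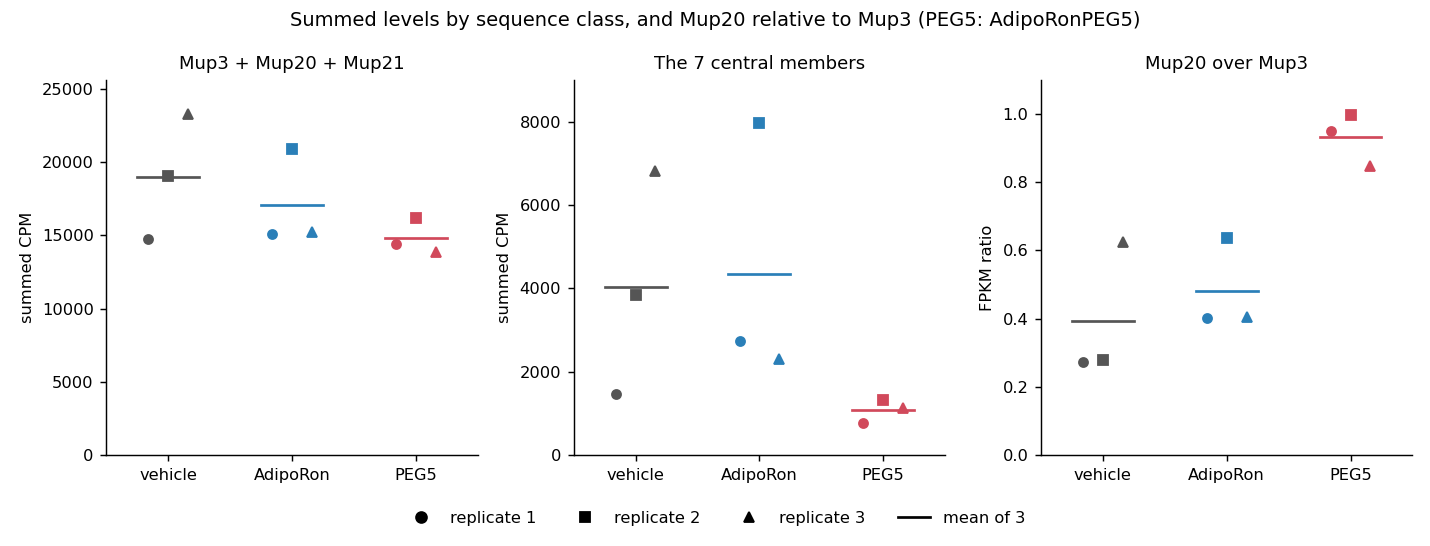
Summed CPM of the 3 distinct members (left) and of the 7 central members (middle), and the FPKM ratio of Mup20 to Mup3 (right), with 1 point per library and a line at the mean of 3. The central sum is 779 to 1326 CPM in AdipoRonPEG5 libraries and 1469 to 7975 CPM in the other 6, and the ratio is 0.847 to 0.996 against 0.272 to 0.637.

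With AdipoRon, none of the 10 genes differed from vehicle past the threshold, and all 10 had overlapping libraries. The count was 0 with edgeR, DESeq2 and limma-voom, and no gene reached an unadjusted p under 0.05 in edgeR; 1.4% of all tested genes passed as lower and 3.8% as higher (5.2% in either direction), while 12.4% had all AdipoRon libraries lower and 14.4% all higher. The lowest adjusted p was that of Mup3, whose log2 fold change was -0.25 ± 0.12 (95% interval -0.52 to 0.020; edgeR adjusted p = 0.263). The median over the members was -0.085, against 0.0057 over all tested genes. For the central genes the intervals were wide: -1.56 to 1.47 for Mup9, -1.64 to 1.39 for Mup17, -1.29 to 2.07 for Mup15 and -0.88 to 0.57 for Mup19. Single libraries turned the direction of these values, with none called: Mup15 was at 1.33 without vehicle 3 and -0.84 without AdipoRon 2, Mup17 at 0.72 and -1.28, and Mup9 at 0.92 and -1.43. Changes of about 2-fold in either direction lie within the intervals of these 3 genes, so that no change was shown, nor its absence.

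AdipoRonPEG5, PEGylated per the design text of the series, and AdipoRon were compared directly as the only pair of compounds, at the same labelled dose. AdipoRonPEG5 livers were lower in 5 of the 10 genes: Mup9 (-5.03 ± 1.04, edgeR adjusted p = 0.0219), Mup17 (-3.70 ± 0.77, 0.0222), Mup19 (-3.07 ± 0.40, 0.00274), Mup2 (-1.22 ± 0.25, 0.0218) and Mup3 (-0.56 ± 0.12, 0.0257), all in log2 units. Of all tested genes 2.71% passed as lower, 2.68% as higher and 5.39% in either direction. None of the 10 was higher at an adjusted or unadjusted p under 0.05 with edgeR, and none passed as higher with DESeq2 or limma-voom. In 8 genes, all but Mup20 and Mup21, every AdipoRonPEG5 library lay below every AdipoRon library, which held for 14.3% of tested genes. Mup15 was just short of the threshold (-3.20 ± 0.83, interval -5.03 to -1.37, edgeR adjusted p = 0.0502), and passed in 8 of 19 alternatives, DESeq2 (0.0159) and limma-voom (0.0405) among them. Mup7 (-1.68, interval -2.84 to -0.52), Mup1 (-1.005, -1.91 to -0.10), Mup21 (-0.27, -1.18 to 0.65) and Mup20 (0.37, -0.40 to 1.13) did not pass. The 2 comparisons of AdipoRonPEG5 share its libraries, and their values are given side by side only.

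The calls between the compounds were less firm than those against vehicle. Of the 5 calls, that of Mup19 held under every alternative tried. Those of Mup2, Mup3 and Mup9 ended without any single AdipoRonPEG5 library, that of Mup17 without AdipoRonPEG5 1 or 3, that of Mup3 also without any AdipoRon library and that of Mup2 without AdipoRon 2 or 3 (adjusted p 0.0553 to 0.101). Limma-voom did not call Mup2 (0.0507) and Mup9 (0.168). The number of members called lower was 3 without AdipoRon 2 or without AdipoRon 3, 1 without AdipoRonPEG5 1 or AdipoRonPEG5 3, 2 without AdipoRonPEG5 2, and 8 when only these 2 groups entered the fit. Calls over all genes moved as well. Of all genes 357 were lower in the main fit, 207 without AdipoRon 2 and 144 without AdipoRon 3. Without AdipoRonPEG5 1, 2 or 3 there were 122, 98 and 113, and with only these 2 groups 403. The values themselves moved with AdipoRon 2 and AdipoRonPEG5 2: Mup9 was at -3.65 and Mup17 at -2.55 without AdipoRon 2, Mup17 at -4.39 without AdipoRonPEG5 2, and Mup19 at -3.86 without AdipoRonPEG5 1. Mup15 was at -1.97 without AdipoRon 2 and -4.11 without AdipoRonPEG5 2, and Mup7 at -1.03 without AdipoRon 2, with a call without vehicle 1 (0.031).

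**Figure D4:**
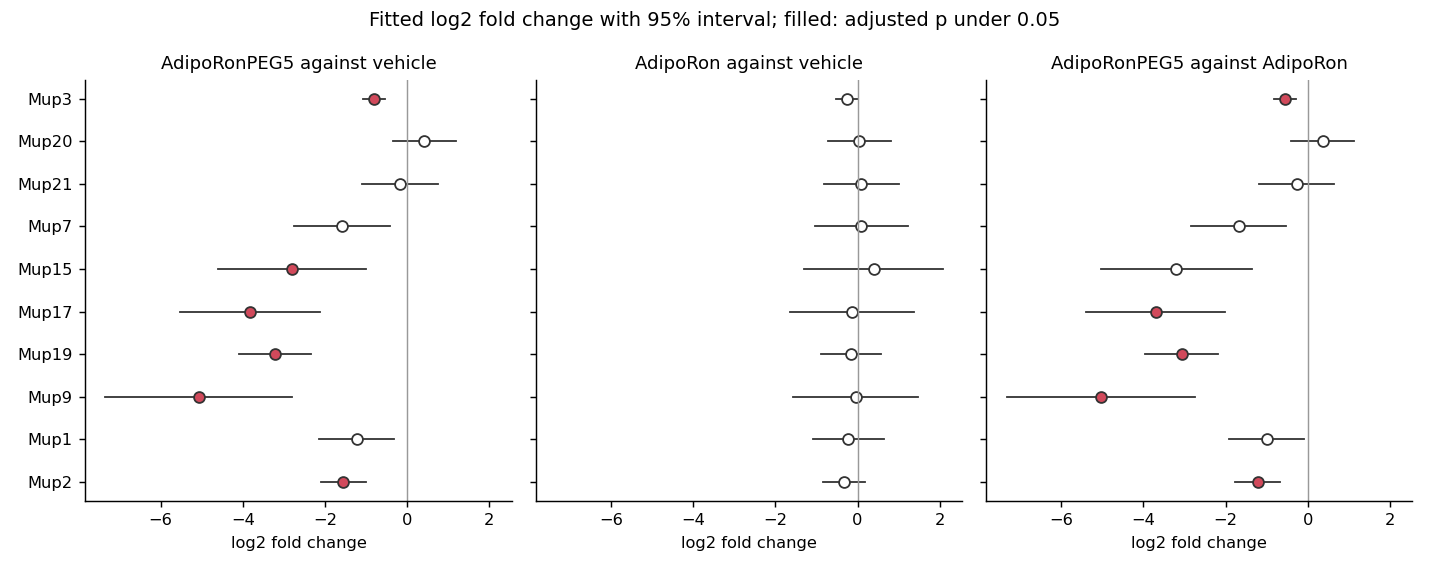
Fitted log2 fold change of each of the 10 Mup genes with its 95% interval in the 3 comparisons; filled points have an adjusted p under 0.05. Filled points are 6 for AdipoRonPEG5 against vehicle, 0 for AdipoRon against vehicle and 5 for AdipoRonPEG5 against AdipoRon.

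The rest of the Mup family gave a like picture with an exception. Of 11 further Mup genes, 8 were tested. Of all tested genes 7.63% fell and 9.55% rose with AdipoRonPEG5. With AdipoRonPEG5 against vehicle Mup16 (-2.41 ± 0.68, edgeR adjusted p = 0.034), Mup12 (-1.33 ± 0.38, 0.0339) and Mup10 (-0.86 ± 0.18, 0.00857) fell. Mup11, the most abundant of them, was at 240.4, 449 and 1359 CPM in vehicle, 241, 1253 and 279.5 in AdipoRon and 100.1, 293 and 101 in AdipoRonPEG5 livers and did not pass (-2.05 ± 0.76, 0.0892), nor did Mup8, Mup14 and Mup18. Mup11 was at -1.06 without vehicle 3 and -2.76 without AdipoRonPEG5 2, and passed without AdipoRon 2 (0.0416). Without vehicle 3, Mup14 moved from -0.70 to -0.012 and Mup18 from -1.86 to -0.41. With all libraries Mup8 (-1.27) passed in DESeq2 (adjusted p = 0.024). The calls of Mup12 and Mup16 ended without vehicle 2, vehicle 3 or any single AdipoRonPEG5 library (adjusted p up to 0.12 and 0.116) and in limma-voom (0.0907 and 0.0642), with -1.50 for Mup16 without vehicle 3. Against AdipoRon, Mup10 was lower (-0.83 ± 0.18, edgeR adjusted p = 0.0251), a call lost without any single AdipoRonPEG5 library (0.0759 to 0.0874). The 15 central Mup genes of the table together had a log2 ratio of -1.88 between AdipoRonPEG5 and vehicle (-1.23 without vehicle 3), against -1.91 for the 7.

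Mup6, a distinct gene, moved the other way at a low level. It had 6, 2 and 5 counts in vehicle, 7, 1 and 2 in AdipoRon and 38, 36 and 25 in AdipoRonPEG5 libraries. AdipoRonPEG5 libraries did not overlap with the others, while vehicle and AdipoRon libraries did overlap. It rose with AdipoRonPEG5 against vehicle by 3.19 ± 0.50 (edgeR adjusted p = 0.00211) and against AdipoRon by 3.18 ± 0.51 (0.00863; 4.28 without AdipoRon 1), in log2 units. Only the AdipoRonPEG5 libraries carried Mup6 past the low-count filter, so a rise was the only call open to it. All of its 100-base windows in GENCODE M21 were found in no other gene.

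Of 30 entries of Mup pseudogenes, copies that no longer code for a protein, 7 were tested, and 5 were lower with AdipoRonPEG5 than with vehicle. Over all tested genes 7.63% were lower against vehicle and 2.71% against AdipoRon. How far the counts of pseudogenes hold reads of the central genes was not measured. Mup-ps12, Mup-ps14 and Mup-ps15, the last not called, passed the low-count filter only through vehicle and AdipoRon libraries. A fall was the only call open to them with AdipoRonPEG5. Mup-ps12 had 195, 42 and 32 counts in vehicle, 53, 76 and 45 in AdipoRon and 2, 4 and 4 in AdipoRonPEG5 libraries (-4.19 ± 0.41, edgeR adjusted p = 0.00024). Mup-ps14 had 156, 31 and 24, 30, 58 and 41 and 1, 6 and 1 counts in the same order (-4.14 ± 0.55, 0.000953; -5.37 without AdipoRonPEG5 2). The others were Mup-ps7 (-1.43), Mup-ps16 (-2.30, -1.61 without vehicle 1) and Mup-ps13 (-0.92). Against AdipoRon 4 of the 7 were lower: Mup-ps12 (-4.15), Mup-ps14 (-4.04), Mup-ps16 (-2.20) and Mup-ps13 (-1.02), the last 2 of which lost the call without AdipoRon 3 or any AdipoRonPEG5 library, Mup-ps16 also in limma-voom (0.0615) and Mup-ps13 without vehicle 2 or AdipoRon 2. Against vehicle Mup-ps13 lost it without vehicle 1, vehicle 3 or AdipoRonPEG5 3 (adjusted p up to 0.0813). All 30 entries together summed to 42.6, 32.3 and 53.9 CPM in vehicle, 30.3, 61.5 and 40.3 in AdipoRon and 13.6, 14.7 and 8.94 in AdipoRonPEG5 livers. Neither set had a call with AdipoRon against vehicle in edgeR, DESeq2 or limma-voom, or a gene at an unadjusted p under 0.05 in edgeR.

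Among vehicle libraries the members varied more than the median gene. In vehicle libraries the coefficient of variation was 87.1% for Mup9, 84.1% for Mup15, 77.7% for Mup17, 64.0% for Mup7, 57.9% for Mup1, 56.8% for Mup20 and 49.5% for Mup21. It was 35.6% for Mup2, 21.2% for Mup19 and 13.0% for Mup3, against a median of 7.98% over 7659 genes with at least 10 CPM. In 8 of the 10 members vehicle 3 was the highest vehicle library and AdipoRon 2 the highest AdipoRon library, which held for 15.9% of all tested genes. Among 16 male-biased liver genes this held for 11, among 10 tested female-biased genes for 0, of which 9 were lowest in both libraries, and among 18 acute phase genes for 17. Of all tested genes 17.2% were lowest in both libraries. Saa1 was at 497 CPM in AdipoRon 2 and at 152 and 140.1 in the other AdipoRon libraries. The part of these gene groups in the spread of the Mup genes was not tested.

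The members followed each other to different degrees over the 9 libraries, which share group, depth and paralogous reads. Pearson's r of log2 CPM was 0.97 between Mup15 and Mup17 and 0.96 between Mup9 and Mup17. Mup20 correlated with the others at -0.47 to 0.78. After group means were taken off, its r was -0.11 with Mup2, 0.35 with Mup19, 0.90 with Mup17 and at most 0.94, with Mup1 and Mup21. The genes outside the family most like the summed members in log2 CPM, of 7428 considered, were Hnrnpa2b1 (r = 0.95), Serpina12 (0.95), Nsmf (0.95), Nmral1 (0.92) and Hsd3b5 (0.92). In deviations from group means they were Serpina1a (0.98), Pdcd5 (0.98), Erdr1 (0.97), Rpl35a (0.97) and Hdac4 (0.96). These are descriptions over 9 libraries.

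Among growth hormone signalling genes, through which the Mup genes are known to be controlled, Bcl6 and Cish passed with both compounds. Bcl6, a repressor that competes with STAT5 for its sites and is itself turned down by growth hormone, was at 103, 105 and 113 CPM in vehicle, 52.1, 25.6 and 23.8 in AdipoRon and 17.95, 13.9 and 12.1 in AdipoRonPEG5 livers. The 3 groups did not overlap, and Bcl6 fell with AdipoRonPEG5 (-2.87 ± 0.27, edgeR adjusted p = 0.000197) and with AdipoRon (-1.66 ± 0.25, 0.0059). It was also lower with AdipoRonPEG5 than with AdipoRon (-1.21 ± 0.26, edgeR adjusted p = 0.0264; 0.102 without AdipoRonPEG5 2 or 3). Cish, which STAT5 induces and whose product restrains the receptor, was at 1.77, 3.74 and 1.19 CPM in vehicle, 15.9, 22.2 and 11.4 in AdipoRon and 16.1, 22.7 and 19.4 in AdipoRonPEG5 livers. It rose with both compounds (3.18 ± 0.34 for AdipoRonPEG5, edgeR adjusted p = 0.00037; 2.95 ± 0.34 for AdipoRon, 0.00229). With AdipoRon, Cish lay above vehicle in every library.

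Socs2, another STAT5-induced inhibitor, was at 3.62, 7.92 and 4.39 CPM in vehicle, 8.08, 7.55 and 8.47 in AdipoRon and 14.2, 18.7 and 11.1 in AdipoRonPEG5 livers. It rose with AdipoRonPEG5 (1.52 ± 0.27, edgeR adjusted p = 0.00404); with AdipoRon its value was 0.65 ± 0.28 (0.202). Stat5b, the STAT5 gene most tied to male liver expression, was at 60.6, 59.3 and 53.04 CPM in vehicle and 44.8, 50.8 and 47.5 in AdipoRonPEG5 livers. It fell by 0.27 ± 0.077 on the log2 scale (edgeR adjusted p = 0.0339), a call lost in 8 of the 19 alternatives, among them those without vehicle 1, vehicle 2, AdipoRonPEG5 1 or AdipoRonPEG5 3 (adjusted p 0.0813 to 0.105). The receptor gene Ghr did not pass (-0.28 ± 0.12, 0.123), but did without vehicle 3 (adjusted p = 0.0193). Of 14 tested genes of the list, 3 rose with AdipoRonPEG5, Cish and Socs2 among them, and 2 fell, with a median of 0.24. With AdipoRon 1 rose and 1 fell, and 1 was lower with AdipoRonPEG5 than with AdipoRon, Bcl6. The shares over all tested genes were 9.55% higher and 7.63% lower with AdipoRonPEG5, and 3.8% and 1.4% with AdipoRon. Between the compounds they were 2.68% and 2.71%.

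**Figure D5:**
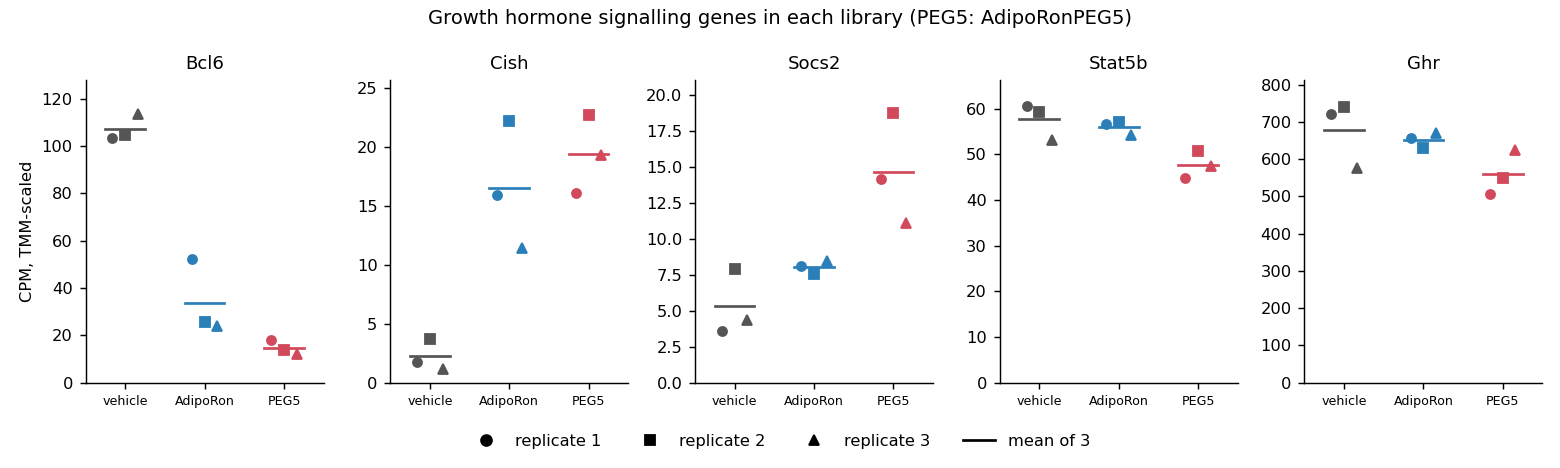
Level of 5 growth hormone signalling genes in CPM by group, with 1 point per library and a line at the mean of 3. Bcl6 steps down from 103 to 113 CPM in vehicle to 23.8 to 52.1 CPM in AdipoRon and 12.1 to 17.95 CPM in AdipoRonPEG5 libraries, while Cish is higher in both compound groups.

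Among 15 transcription factors and hormone receptors, Foxa2 (0.77 ± 0.11, edgeR adjusted p = 0.00126), Onecut1 (2.54 ± 0.48, 0.00572) and Cebpa (0.34) rose with AdipoRonPEG5, and 2 fell, Cebpb (-0.69 ± 0.15, 0.0102) among them. These are factors of hepatocyte gene expression. Of all tested genes 9.55% rose and 7.63% fell with AdipoRonPEG5, and 3.8% rose and 1.4% fell with AdipoRon. The call of Cebpa ended without vehicle 1, vehicle 2, AdipoRon 3 or any single AdipoRonPEG5 library (adjusted p up to 0.148). With AdipoRon, Foxa2 (0.80, 0.00363), Onecut1 (2.63, 0.0138) and the glucocorticoid receptor gene Nr3c1 (0.40, 0.0268) rose; the call of Onecut1 ended without vehicle 1 (0.0608) and that of Nr3c1 without vehicle 1, vehicle 2, AdipoRon 2 or AdipoRon 3 (up to 0.0975). Zhx2, a regulator for which Mup genes are known targets, was at 19.7 ± 2.13 CPM in vehicle, 15.9 ± 3.46 in AdipoRon and 17.8 ± 1.33 in AdipoRonPEG5 livers and did not pass (-0.14 ± 0.15 with AdipoRonPEG5, 0.552).

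Other sex-biased liver genes gave few calls. With AdipoRonPEG5, 1 of 16 male-biased genes passed as higher and 2 as lower, and of 10 tested female-biased genes 1 and 2. Over all tested genes 9.55% passed as higher and 7.63% as lower, so these small counts are not read as a trait of sex-biased genes. Of 16 male-biased genes, Hsd3b5, a steroid dehydrogenase gene (283 ± 109 to 137 ± 17.8 CPM; -1.05 ± 0.27, edgeR adjusted p = 0.0226), and Nudt7 (-0.73, 0.0308) fell with AdipoRonPEG5. Cyp4a12a, a fatty acid hydroxylase gene, rose from 80.8 ± 8.68 to 191 ± 43.8 CPM (1.24 ± 0.16, edgeR adjusted p = 0.00096), and rose with AdipoRon (0.72, 0.032), a call that ended without any vehicle library, AdipoRon 2, AdipoRon 3 or AdipoRonPEG5 2. The median was -0.17. The calls of Hsd3b5 and Nudt7 ended without any 1 of vehicle 2, vehicle 3, AdipoRonPEG5 2 or AdipoRonPEG5 3 (adjusted p up to 0.0762 and 0.113), that of Hsd3b5 also without AdipoRonPEG5 1. Of 10 tested female-biased genes, Cyp2a4 rose (6.21, 4.91 without AdipoRonPEG5 2) and Cyp17a1 (-2.003, 0.00484) and Atp6v0d2 (-1.39, not called without AdipoRonPEG5 1 or 2) fell with AdipoRonPEG5. Cyp2a4 was at 0.2571, 0.1495 and 0.1488 CPM in vehicle, 0.0617, 0.0555 and 0.41 in AdipoRon and 8.58, 34.7 and 4.25 in AdipoRonPEG5 livers. Only the AdipoRonPEG5 libraries carried it past the low-count filter, so a rise was the only call open to it. Cyp2a4 was also higher than with AdipoRon (6.54; 5.22 without AdipoRonPEG5 2, 7.94 without AdipoRon 3; not called in limma-voom, adjusted p = 0.11).

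Relatives of the Mup genes and other secreted products of hepatocytes were counted in the same way. With AdipoRonPEG5, 7.63% of all tested genes passed as lower and 9.55% as higher. Of 10 further lipocalins, Ptgds (-3.08 ± 0.36, 3.03 ± 0.745 to 0.347 ± 0.0339 CPM, edgeR adjusted p = 0.000476), the complement gene C8g (-0.39) and the retinol carrier gene Rbp4 (-0.31, 0.0439) fell with AdipoRonPEG5, with a median of -0.040. C8g fell with AdipoRon (-0.34, 0.0424), and Ptgds was lower with AdipoRonPEG5 than with AdipoRon (-2.04, 0.0149). Ptgds passed the low-count filter only through vehicle and AdipoRon libraries, so a fall was the only call open to it with AdipoRonPEG5. The call of Rbp4 ended without any single library but vehicle 3, that of C8g with AdipoRon without any of the 9, and the second of Ptgds without any AdipoRonPEG5 library. Of 20 hepatocyte secreted proteins 8 fell with AdipoRonPEG5 and none rose (edgeR; 0 rises in DESeq2 and limma-voom, and none at an unadjusted p under 0.05), among them the antitrypsin genes Serpina1d (-0.75) and Serpina1b (-0.56) and the apolipoprotein gene Apoc3 (-0.45). Their median was -0.21. With AdipoRon no gene of this list passed in edgeR, with 9 at an unadjusted p under 0.05, all lower; 7 passed as lower in DESeq2 and 1 in limma-voom. Serpina1d was lower with AdipoRonPEG5 than with AdipoRon (-0.54, edgeR adjusted p = 0.0146; not without AdipoRon 3, AdipoRonPEG5 1 or AdipoRonPEG5 2).

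Acute phase genes did not pass in any comparison with edgeR or DESeq2. Of 18, none was at an unadjusted p under 0.05 with AdipoRonPEG5 against vehicle, 1 with AdipoRon (lower) and 3 between the compounds (higher with AdipoRonPEG5), and limma-voom called 2 higher with AdipoRonPEG5 against vehicle. Their summed level was 19294 to 59304 CPM in vehicle, 20550.02 to 26618 in AdipoRon and 26805 to 42389.8 in AdipoRonPEG5 livers, highest in vehicle 3, where Mup20 was highest too. Saa1 had a log2 fold change of -1.11 ± 1.49 with AdipoRonPEG5 (edgeR adjusted p = 0.659), and of 4.10 without vehicle 3 (adjusted p = 0.0252).

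Among markers of other liver cells, those of macrophages passed in largest number. Over all tested genes 9.55% rose and 7.63% fell with AdipoRonPEG5, and 3.8% rose and 1.4% fell with AdipoRon. Of 16 tested macrophage and Kupffer cell markers 16 rose with AdipoRonPEG5 (median 1.78) and 13 with AdipoRon (median 1.29), led by the scavenger receptor gene Marco (4.26 and 4.05), Cd5l (1.98 and 1.77) and Aif1 (1.90 and 1.71). All 17 markers summed to 211 to 304 CPM in vehicle, 507 to 886 in AdipoRon and 808 to 817 in AdipoRonPEG5 livers, and none was at 0 in a whole group. Between the compounds Ccr2 alone passed, as higher with AdipoRonPEG5 (1.47, edgeR adjusted p = 0.00573). Of 7 tested lymphocyte markers 4 rose and 1 fell with AdipoRonPEG5 and 2 rose with AdipoRon, and 11 markers summed to 3.32 to 4.31, 5.26 to 7.65 and 6.70 to 8.51 CPM. Cd79a, Cd79b, Gzma and Cd3e were at 0.026 to 0.334 CPM in vehicle. Only compound libraries carried them past the low-count filter, so a rise was the only call against vehicle open to them. The calls with AdipoRon, Cd79b and Cd3e, were lost in 12 and 4 of 17 alternatives. Of 9 stellate cell and fibroblast markers Col1a2 rose with AdipoRonPEG5 (0.78, not called without vehicle 2 or AdipoRonPEG5 2); no endothelial (8) or cholangiocyte (5) marker passed in edgeR, DESeq2 or limma-voom, with 1 of each at an unadjusted p under 0.05 with AdipoRonPEG5 and 1 with AdipoRon against vehicle. Of 6 adipose markers, 4 (Adipoq, Plin1, Lep and Retn) were at 0 counts in all AdipoRonPEG5 libraries, and Lep in all 9 libraries; the complement factor D gene Cfd fell with AdipoRonPEG5 (-4.12, edgeR adjusted p = 0.0384), but not in limma-voom (0.15) or without vehicle 1 (-2.14) or any AdipoRonPEG5 library (-5.50 without AdipoRonPEG5 2). Cfd passed the low-count filter only through vehicle and AdipoRon libraries, so a fall was the only call open to it with AdipoRonPEG5. The 6 adipose markers summed to 5.95 to 11.7, 4.999 to 11.003 and 2.90 to 4.36 CPM. The hepatocyte markers Apoa1 (-0.65) and Cps1 (-0.47) fell with AdipoRonPEG5, both not called without AdipoRonPEG5 1 or 2 and Cps1 not without vehicle 2. Alb had 0.022 (0.937). The part of these cells in the levels of the Mup genes was not tested.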

How the data were processed

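The authors deposited 1 table of read counts per gene and library and, beside them, FPKM. Per the submitters' processing notes, STAR 2.5, TopHat, HTSeq 0.6.1, DESeq2 and edgeR were used, with no role or order; build, annotation, strand and the rule for reads matching several genes are not given in the sources used here. Deposited FPKM equal count over gene length and library total (length whole within 0.01 for 99.99% of values; equal to the longest GENCODE M21 transcript for 10 of 10 members) and served for levels between genes. Columns of the AdipoRonPEG5 libraries carry the prefix OH_Adip and were tied to that group through the sample descriptions.

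The deposited counts entered 1 edgeR 4.0.16 quasi-likelihood fit (R 4.3.3) of all 9 libraries with 3 group means, TMM and filterByExpr (13151 genes), with Benjamini-Hochberg adjustment over all of them and a threshold of 0.05. CPM are TMM-scaled, errors of means are SD and of fold changes SE, and intervals are at 95%. A floor of 3 counts is 0.076 to 0.215 CPM of the library total. The fit was tested on simulated data.

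The members and lists were chosen with earlier results of these data known, so counts of calls stand beside the share of all genes called and no list has a p. Named were all Mup entries, up to 3 called genes of each list and comparison by p, Bcl6, Stat5b, Ghr, Socs2, Zhx2 and Saa1, and the 5 genes most correlated with the summed members; Cebpa and Alb were named after their values were seen, and a few called list members are not reported here. Tf and Adgre1 were found under older symbols. Alternatives were RLE, total-count and Mup-free scaling, other filters, DESeq2 1.42.0, limma-voom (limma 3.58.1), 2 groups only, a replicate block, each library left out, and vehicle 3 with AdipoRonPEG5 1 left out; the sum of all 51 Mup entries, the class sums with 1 library left out and the motif TATATAAG were added after seeing the data.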

Additional observations from a re-analysis of the deposited data

How the results depend on the processing

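Depth limits the values of Mup9 and Mup6, whose lowest groups hold 6 to 11 and 1 to 7 counts a library. Under the alternatives 196 values no longer passed and 48 passed anew. The number of members called lower with AdipoRonPEG5 against vehicle was 6, 5 to 8 with 1 library left out and 5 to 8 otherwise; of those called higher it was 0, 0 to 1 with 1 library left out, and 1 with vehicle 3 and AdipoRonPEG5 1 both left out (Mup20). Against AdipoRon it was 5 lower, 1 to 7 with 1 library left out, 4 to 8 otherwise and 8 with only the 2 groups compared. Over all genes, calls lower with 1 library left out ran from 536 to 1046 against vehicle and from 98 to 481 against AdipoRon. The cause was not tested. No label says that a replicate number pairs libraries. Deviations of same-numbered libraries correlated at -0.46 to 0.13. No differently numbered libraries were set beside them, so pairing was not tested. With a replicate block the members lower were 6 against vehicle and 4 against AdipoRon, where the calls of Mup2 and Mup3 ended and that of Mup15 was gained. The summed level of the 10 had log2 ratios of -0.74 to -0.30 (AdipoRonPEG5 against vehicle), -0.39 to 0.13 (AdipoRon against vehicle) and -0.55 to -0.15 (between compounds) with 1 library left out. Total-count scaling gave 1700 genes higher and 584 lower with AdipoRonPEG5 against 1256 and 1004, and 883 and 64 with AdipoRon against 500 and 184, with the same 6 members lower and 0 respectively. Saa1 had -3.14 to 4.10 with AdipoRonPEG5 with 1 library left out; it changed direction and passed with AdipoRonPEG5 at 4.10 without vehicle 3 and 2.08 with both left out, and with AdipoRon at 2.54 with both left out. Of 2866 fold changes under an alternative, 91 values that did not pass had the opposite sign, 79 of them for AdipoRon against vehicle.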
